A study of Sorghum bicolor with 4 samples.

Results

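Chromosome tips are here the outermost 1 Mb at both ends of the 10 sorghum chromosomes, 20 tips in all. A peak was counted as a tip peak where its summit lay less than 1 Mb from the first base of the chromosome or from the end of its last peak, which stands in for the chromosome length. Of 40087 deposited peaks, 35541 lay on chromosomes and 703 of these were tip peaks. The tips hold 1.98% of the chromosome peaks and 2.93% of the chromosome length of 683.3 Mb. The peaks come from chromatin immunoprecipitation with sequencing of SbGhd7 in sorghum mesophyll protoplasts, leaf cells whose walls were digested away. Input chromatin (2 samples) and chromatin recovered with an antibody against Myc (2 samples) both came from protoplasts that transiently expressed SbGhd7 overnight at 24 °C. No group without SbGhd7 is described in the labels, and the promoter that drove the transient expression is not given in the sources used here. For the 4 samples 1 peak list was deposited, with no value per sample, and how many of them it rests on is not known. No spread between replicates therefore stands behind any value below, and the depth of the libraries is unknown.

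SbGhd7 belongs to the CCT-domain proteins, a plant family of transcriptional regulators, and is known as a repressor of flowering under long days. Chromosome tips end in telomere repeats. Next to these lie subtelomeres, which in plants often hold repeats and recently duplicated segments, while in grasses the outer parts of the arms are also rich in genes. No sequence and no gene annotation of the build behind the list were used, so the tip peaks are described by position and by the values of the list.

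The fold of a peak is the authors' ratio of the immunoprecipitate over the local background at the summit, each with 1 added. Pileup counts the immunoprecipitated fragments over the summit, and background is the count that the control, taken to be the input, predicts for the same base. Both were recovered from the deposited fold and p-value. Intervals on a count, a density or a fold are exact 95% Poisson intervals and those on a share follow Clopper and Pearson. They cover counting error only, with the background held fixed, and amplified fragments without molecular identifiers are not independent molecules.

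Tip peaks were weak for the most part. Their median fold was 3.61, with quartiles of 3.21 and 4.22 and extremes of 1.95 and 9.60. The median pileup was 12 fragments over a median background of 2.30, and the median width was 223 bp, with quartiles of 170 and 346 bp. In the next 9 Mb inward, which held 5435 peaks, the median fold was 3.69, the median pileup 11, the median background 2.30 and the median width 216 bp. The middle of the distribution was thus close in both regions. The upper end was not, since the 95th percentile of background was 19.0 fragments in the tips and 3.50 in the next 9 Mb. The difference in this percentile rested on 1 of the 20 tips. Without the 47 peaks in the first 110 kb of chromosome 2 the 95th percentile of the tips was 3.64. Backgrounds of 50 fragments or more lay at other tips, with 11 such peaks in the tips and 3 in the next 9 Mb.

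Of the 703 tip peaks, 699 had a q no larger than 0.05. A −log10 q of 5 or more was reached by 155, or 22.0% (19.0 to 25.3), where 18.3% of all chromosome peaks did so. Of these 155, 40 lay among the 47 peaks in the first 110 kb of chromosome 2. The intervals on shares take peaks as independent, and since peaks cluster they are too narrow. Folds of at least 5 were seen at 54 tip peaks, or 7.68% (5.82 to 9.90), beside 8.47% of all chromosome peaks, a share near the background. A background of 10 fragments or more was found at 60 tip peaks, or 8.53% (6.58 to 10.8), beside 0.993% of all chromosome peaks. At 50 fragments or more there were 11 tip peaks, or 1.56% (0.784 to 2.78), beside 0.101%. Tips therefore hold 60 of the 353 chromosome peaks whose background was at least 10 and 11 of the 36 with 50 or more. These peaks lay in few places, which are described one by one below.

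**Figure D1:**
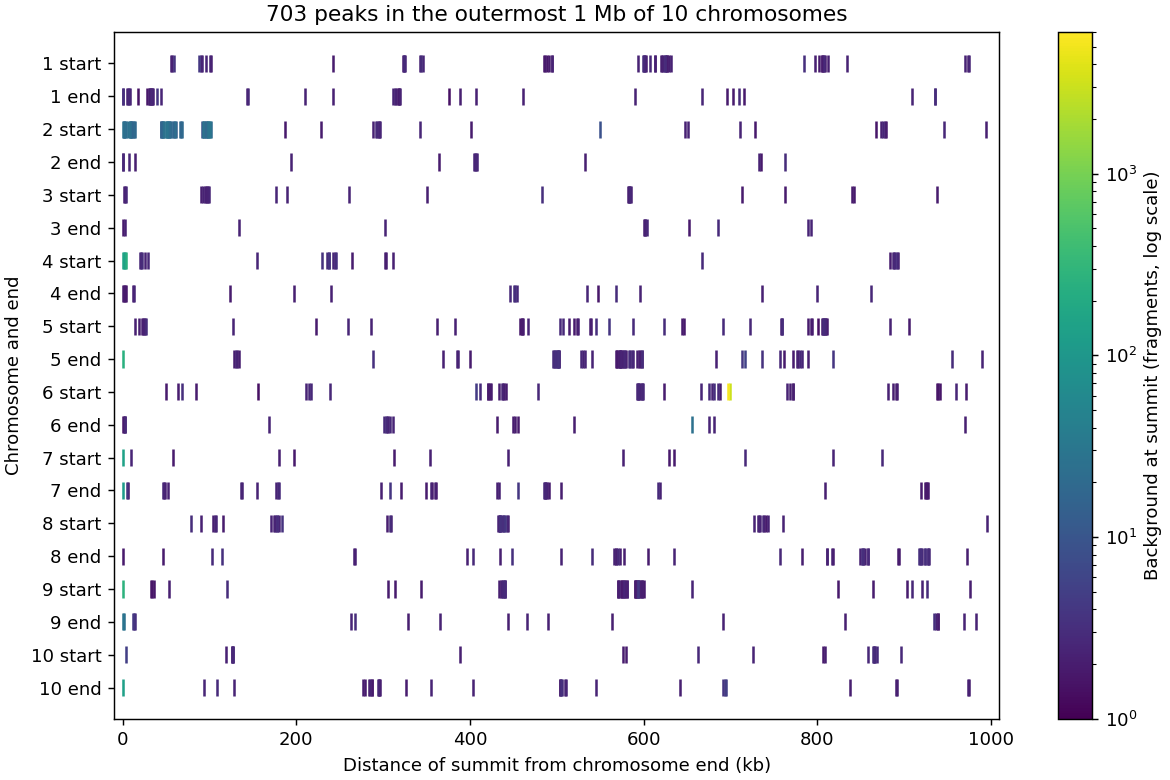
Position of each of the 703 tip peaks as the distance of its summit from the chromosome end in kb, with 1 row for each of the 20 tips and colour for the background at the summit in fragments (log scale). The first 110 kb of chromosome 2 and the outermost few kb of several other tips stand out by their background, as does a pair of peaks near 700 kb from the start of chromosome 6.

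The tips differed widely in their number of peaks. Counts ran from 12 to 69 with a median of 35, and the start tips held 398 peaks and the end tips 305. The start tip of chromosome 2 held 69 (53.7 to 87.3) and the end tip of chromosome 5 held 60 (45.8 to 77.2). The start tips of chromosomes 1, 5, 6 and 9 followed with 55, 51, 51 and 48 peaks.

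At the other extreme, the end tip of chromosome 3 held 12 peaks (6.20 to 21.0), and the end tip of chromosome 2 and the start tip of chromosome 7 held 14 each (7.65 to 23.5). Both tips of chromosome 3 were sparse, with 25 peaks at its start. The tips of one chromosome could also differ strongly, as on chromosome 2 with 69 and 14 peaks, while those of chromosome 8 held 37 and 45. The start tips averaged 39.8 ± 17.7 peaks per Mb over the 10 chromosomes (SD) and the end tips 30.5 ± 15.6. The start tip was the denser one on 6 of 10 chromosomes, and the difference did not pass an exact two-sided sign-flip test over chromosomes (ratio 1.33, p = 0.273). End tips are measured from their last peak and start tips from the first base, so the empty stretch before the first peak counts only at the start.

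Each tip was then set against the next 9 Mb of the same end. Over the 10 chromosomes, with both ends pooled, tips averaged 35.15 ± 11.6 peaks per Mb (SD) and the next 9 Mb 30.2 ± 5.77. The tips were denser on 7 of 10 chromosomes. The ratio of tip to inner density was 1.12 on average and ran from 0.750 on chromosome 3 to 1.88 on chromosome 1, and the difference did not pass the exact two-sided sign-flip test (p = 0.273, adjusted p = 0.58). Without the outermost 10 kb the mean ratio was 1.04, with denser tips on 5 of 10 chromosomes. It was 1.02 without the start side of chromosome 2. With tips of 0.5 Mb it was 1.17, and against 1 to 5 Mb it was 1.33.

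By single tips, 13 of 20 were denser than their own next 9 Mb. The largest ratios were 2.56 at the start of chromosome 2, with 69 peaks against 27.0 per Mb, and 2.13 at the end of chromosome 1, with 41 against 19.2 per Mb. The smallest was 0.307 at the start of chromosome 7, with 14 against 45.7 per Mb. Next came 0.529 at the end of chromosome 3, 0.592 at the start of chromosome 10 and 0.594 at the end of chromosome 2. The Poisson interval of the tip density lay wholly above the inner density at the starts of chromosomes 1, 2 and 5 and at the ends of chromosomes 1, 5 and 7, and wholly below it at the start of chromosome 7, the start of chromosome 10, the end of chromosome 3 and the end of chromosome 2, with peaks taken as independent. Since peaks cluster, these intervals are too narrow.

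**Figure D2:**
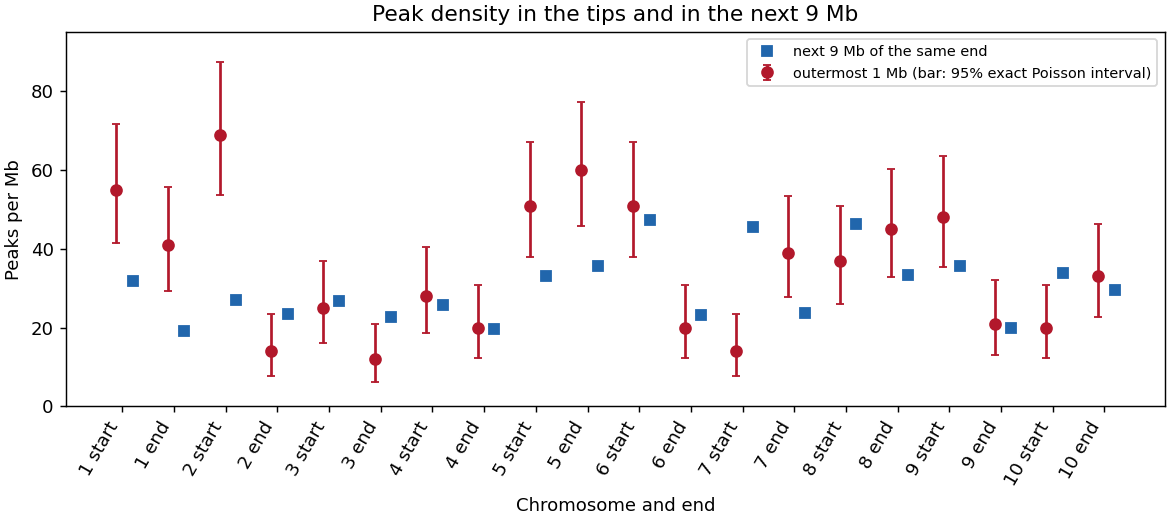
Peaks per Mb in the outermost 1 Mb (circles, bars for exact 95% Poisson intervals) and in the next 9 Mb of the same end (squares) for the 20 chromosome ends. Tip densities range from 12 to 69 peaks per Mb, and the densities of the next 9 Mb from 19.2 to 47.3.

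Along the outer 10 Mb the density did not run evenly. The outermost window of 1 Mb held 35.15 ± 16.9 peaks (SD, n = 20 ends), the window from 1 to 2 Mb held 24.0 ± 11.02, and the window from 2 to 3 Mb held 23.0 ± 8.38. The windows further inward had higher means, up to 40.2 ± 20.2 between 9 and 10 Mb, where the median was 33. The outermost window thus held as many peaks, 703, as the window from 7 to 8 Mb, with sparser windows between them. It held more peaks than the window from 1 to 2 Mb at 13 of 20 ends and fewer at 6. It was the densest of the 10 windows at 5 ends, namely both ends of chromosome 1, the start of chromosome 2 and the ends of chromosomes 5 and 7. Against the window from 1 to 2 Mb alone, a comparison chosen after the profile had been seen, the density ratio had a log2 of 0.57 (exact sign-flip p = 0.0312, adjusted p = 0.141 over 9 measures), which does not pass after adjustment.

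**Figure D3:**
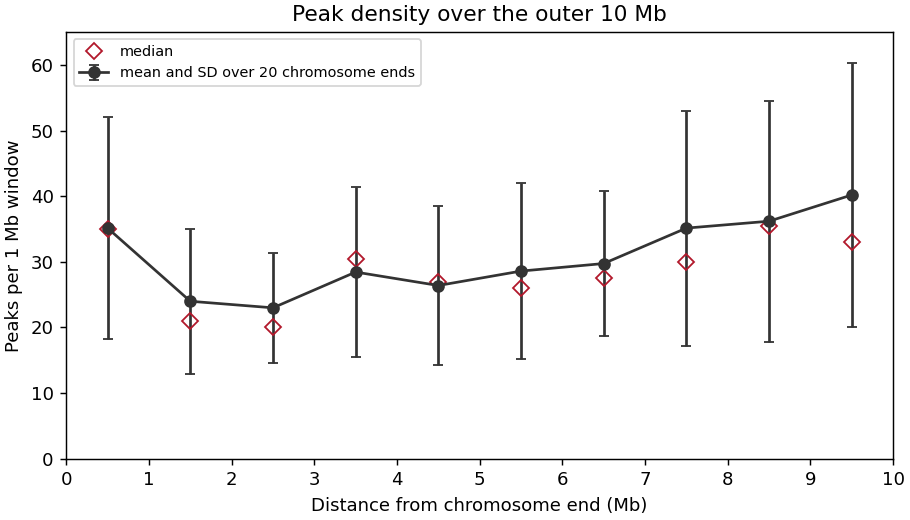
Peaks per 1 Mb window against the distance from the chromosome end in Mb, as mean and SD (circles and bars) and median (diamonds) over 20 chromosome ends. The mean is 35.15 in the outermost window, 24.0 and 23.0 in the next pair of windows and 40.2 in the last.

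Within the tips, the outermost 100 kb held the most peaks, 143 of 703 or 20.3%. Of these, 45 lay on the start of chromosome 2. The next window, from 100 to 200 kb, held 50 peaks, and the window from 200 to 300 kb held the fewest, 43, with none at 7 of 20 tips. A second rise came from 500 to 600 kb with 108 peaks. There it was carried by few tips, since the median was 1.5 peaks per tip and the highest count 31. Every tip had at least 1 peak in its outermost 100 kb. For end tips that follows from measuring the distance from the last peak.

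Where the outermost peak lay can be read from the data only at the start tips. Its summit was 85 bp from the first base on chromosome 4, 88 bp on chromosome 7, 167 bp on chromosome 9 and 300 bp on chromosome 2. On chromosomes 3 and 10 it lay 1.45 and 4.20 kb in. On the other 4 chromosomes the outermost 10 kb held no peak, and the first summit came at 13.8 kb on chromosome 5, 49.5 kb on chromosome 6, 55.5 kb on chromosome 1 and 78.7 kb on chromosome 8. The start tips thus fall into ones with a peak in the outermost 5 kb, 6 of 10, and ones without.

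Neighbouring summits were mostly close together, with a few long empty stretches between groups. The median spacing within a tip ran from 1.25 kb at the start of chromosome 2 to 55.4 kb at the start of chromosome 7, with a median over the 20 tips of 3.81 kb. Over chromosomes it was 3.72 ± 2.65 kb (SD, n = 10) in the tips and 4.33 ± 0.938 kb in the next 9 Mb. It was shorter in the tips on 8 of 10 chromosomes, with no call by the exact sign-flip test (log2 ratio -0.42, p = 0.186, adjusted p = 0.58). The longest stretch without a summit measured 99.9 to 356.8 kb by tip. The longest of all lay at the start of chromosome 4, between 310.9 and 667.6 kb from the end.

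When summits 10 kb or less apart were joined, the 703 tip peaks formed 256 clusters, or 12.8 per Mb, and 152 peaks stood alone. In the next 9 Mb there were 12.1 clusters per Mb. Of the tip peaks, 24.6% lay in the 11 clusters of 10 peaks or more, and of the peaks in the next 9 Mb 15.2%. The share of peaks that stood alone was 21.6% and 22.2%. These shares were not tested. Clusters were thus slightly denser in the tips by count, with no call over chromosomes. With 1 peak per cluster the density ratio was 1.05, higher in the tips on 5 of 10 chromosomes (exact sign-flip p = 0.381, adjusted p = 0.921). The larger clusters held a larger share of the peaks in the tips. Of the 173 tip peaks in them, 47 lay in 3 blocks at the start of chromosome 2, described below.

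The largest tip cluster lay at the start of chromosome 9, chr9:570248-600158, where 24 peaks covered 29.9% of 29.9 kb. Their folds ran from 2.85 to 5.28 with a median of 4.29, and their median background was 2.01 fragments. It lies 570.3 to 600.1 kb from the end. At the end of chromosome 5, chr5:71256136-71286708 held 22 peaks with a median fold of 3.34 and a median background of 2.16, and it lies 568.1 to 598.4 kb from its end. Both lie almost wholly in the window from 500 to 600 kb. The cluster at the start of chromosome 1, chr1:593078-631244, held 19 peaks with a median fold of 3.94. The cluster at the very end of chromosome 1, chr1:80765972-80810620, held 17 peaks in the last 44.65 kb, with a median fold of 3.91 and a median background of 2.30. The median backgrounds of these 4 clusters ran from 2.01 to 2.30 fragments, where all chromosome peaks had a median of 2.30. In this they differed from the clusters of chromosome 2 described next.

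The start of chromosome 2 was unlike every other tip in background and width. Its first 110 kb held 47 peaks, 68.1% of that tip's peaks, in 3 blocks separated by 28.9 and 22.4 kb without a peak. The first block, chr2:82-14745, held 14 peaks that covered 62.2% of it. The second, chr2:43604-68740, held 21 peaks over 51.8% of it. The third, chr2:91163-102167, held 12 peaks over 69.3% of it. Together the peaks covered 29.8 kb of 102.1 kb.

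In these 47 peaks the background ran from 9.42 to 30.2 fragments with a median of 18.7, and the pileup from 32 to 94 with a median of 64. Their median fold was 3.02, between 2.23 and 4.73, and none reached 5. Their median width was 499 bp, up to 2102 bp at chr2:56727-58828, which is the widest of all tip peaks. The next peak inward, chr2:186671-186856, lay 84.5 kb further and had a background of 1.84, a pileup of 20 and a fold of 7.39 (4.65 to 11.2). The remaining 22 peaks of the same tip had a median background of 2.30, a median fold of 3.69 and a median width of 239 bp. Background, pileup and width thus changed together between the first 110 kb and the rest of this tip, and the fold was lower where the background was high. Pileup is tied to fold and background by definition, so its change is not a separate result. The list holds only called peaks, and a lower fold can pass a Poisson cut where the background is higher. Among all tip peaks the lowest fold was 1.95 at backgrounds of 10 or more and 2.32 under 10. What the lower fold reflects was not tested.

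The 3 blocks held 46 of the 60 tip peaks with a background of 10 or more. In the next 9 Mb, 45 of the 50 such peaks also lay in 1 place, from 7604 to 7723 kb from the start of chromosome 9. Those 45 had a median background of 14.3, a median fold of 4.93 and a median width of 930 bp. The blocks on chromosome 2 therefore had a higher background, a lower fold and narrower peaks at the median than that region, although they were wider than tip peaks elsewhere. What raises the background in either place was not tested.

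**Figure D4:**
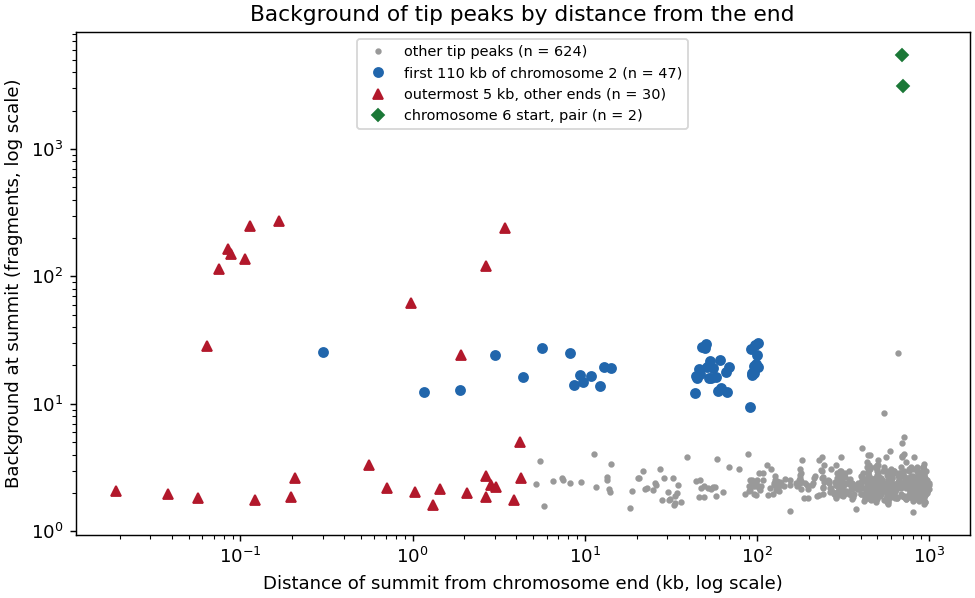
Background at the summit in fragments against the distance of the summit from the chromosome end in kb, both on log scales, for the 703 tip peaks. Peaks of the first 110 kb of chromosome 2 lie between 9.42 and 30.2 fragments, and the chromosome 6 pair lies above 3000 fragments. Peaks in the outermost 5 kb of other ends range from 1.60 to 269.4 fragments, with 2 at the end of chromosome 9 between the low and the high ones.

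The outermost 5 kb of the 20 tips held 35 peaks. Of these, 9 had a background of 50 fragments or more, 7 had 10 to 50, and the rest had 1.60 to 5.04. Every end tip has a peak there by construction, since its distances run from its last peak. Among start tips, 6 of 10 had a peak there. The 9 peaks lay at 6 tips: the starts of chromosomes 4, 7 and 9 and the ends of chromosomes 5, 7 and 10. Their median fold was 3.77, with extremes of 2.15 and 7.52.

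At the start of chromosome 4, 4 such peaks followed each other within the outermost 5 kb. The peak chr4:15-182 had 615 fragments where 162.5 were predicted, a fold of 3.77 (3.48 to 4.08). The peak chr4:914-1062 had 250 over 62.0, or 3.98 (3.51 to 4.51). The peak chr4:2576-2874 had 917 over 121.0, or 7.52 (7.04 to 8.03), and chr4:3363-3661 had 1271 over 240.0, or 5.28 (4.99 to 5.58). The folds of this row thus rose from the end to the third peak, whose interval lay above those of the other 3.

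The other high peaks near an end were the only ones of their tip with a background of 50 or more. At the end of chromosome 5, chr5:71854467-71854650 had a pileup of 1095 over 249.5 and a fold of 4.38 (4.12 to 4.64). At the start of chromosome 9, chr9:80-436 had 985 over 269.4 and a fold of 3.65 (3.42 to 3.88). Chromosome 7 had one at both ends, chr7:18-329 with a fold of 3.37 (3.08 to 3.68) and chr7:65504569-65505269 with a fold of 2.15 (1.89 to 2.44). At the end of chromosome 10, chr10:61233461-61233610 had a pileup of 390 over 136.0 and a fold of 2.85 (2.58 to 3.15). Among these 5 peaks the fold ran from 2.15 to 4.38, on both sides of the median of tip peaks, 3.61.

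A smaller rise was seen at the end of chromosome 9. There chr9:59415307-59415487 had a pileup of 56 over a background of 28.3, with a fold of 1.95 (1.48 to 2.52), the lowest of all tip peaks, and its neighbour chr9:59413554-59413732 had 48 over 24.1, also with a fold of 1.95. Apart from the chromosome 6 pair described next, the 1 remaining tip peak with a background of 10 or more, chr6:60610474-60611665, had 91 over 24.97 and a fold of 3.54, at 656.3 kb from the end of chromosome 6. At the other outermost peaks the background was under 10, from 1.75 fragments at the end of chromosome 6 to 5.04 at the start of chromosome 10. The value of 5.04 still lay above the 95th percentile of all chromosome peaks, 4.38. With the start of chromosome 2, at 25.7 fragments, 8 of the 20 outermost peaks had a background of 10 or more and 12 did not. Of these 12, the starts of chromosomes 1, 5, 6 and 8 held no peak in the outermost 10 kb. The list thus gives no background there. End tips are measured from their last peak, so the true distance to the chromosome end is unknown. Among start tips with a peak in the outermost 5 kb, those of chromosomes 3 and 10 did not share the high background. Their outermost peaks had 2.15 and 5.04 fragments.

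The pair with the highest background of all tip peaks lay far from the end, 697.7 and 699.9 kb from the start of chromosome 6. The peak chr6:697474-697899 had 25116 fragments over a background of 5443, with a fold of 4.61 (4.56 to 4.67), and chr6:699820-700090 had 15114 over 3123, with a fold of 4.84 (4.76 to 4.92). They are 1.92 kb apart. The nearest other peaks, chr6:687740-687877 and chr6:764633-765160, had backgrounds of 1.96 and 2.30. The neighbouring peaks thus did not share the rise, and the list holds no background between peaks. Both take part in every count of tip peaks here, but as 2 of 71 on the tips of chromosome 6 they do not set its medians.

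Few tip peaks had a high fold over an ordinary background. Folds of at least 8 were seen at 2 of the 703 tip peaks, at 20 of 5435 in the next 9 Mb and at 46 of all 35541 chromosome peaks, shares of 0.284% (0.0345 to 1.02), 0.368% (0.225 to 0.568) and 0.129% (0.0948 to 0.173). The 2 tip peaks were chr4:68040705-68040839, with a pileup of 37 over 2.96 and a fold of 9.60 (6.84 to 13.1), and chr10:60830165-60830324, with 29 over 2.29 and a fold of 9.10 (6.20 to 12.9). Both were narrow, 135 and 160 bp wide. They lay 568.4 and 403.4 kb from the ends of their chromosomes. The interval of the tip share includes both other shares.

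Below them, and leaving aside the peaks of chromosomes 4 and 2 already named, the fold was 6.97 (4.48 to 10.4) at chr8:61799208-61799490 and 6.75 (4.25 to 10.2) at chr10:60342239-60342752. Then followed 6.39 (3.93 to 9.91) at chr5:71279548-71280291, inside the cluster at the end of that chromosome, and 6.39 (3.97 to 9.80) at chr10:388068-388215. The last of the 10 largest folds were 6.06 (3.67 to 9.51) at chr5:71076142-71076593 and 6.03 (3.65 to 9.46) at chr1:80776358-80776746. All of these rested on 17 to 22 fragments, and their intervals overlapped. By tip, peaks with a fold of at least 5 numbered from 0 at the end of chromosome 3, the end of chromosome 6 and the start of chromosome 7 to 8 at the start of chromosome 9. The tips of chromosome 10 held 7 of them among 53 peaks.

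The remaining measures were compared over chromosomes in the same way, and none of the 9 comparisons with the next 9 Mb passed the exact sign-flip test. The smallest p was 0.109 before and 0.58 after Benjamini-Hochberg adjustment, where the smallest p that 10 chromosomes allow is 0.00195. The median fold was 3.64 ± 0.213 (SD, n = 10 chromosomes) in the tips and 3.68 ± 0.0537 in the next 9 Mb, lower in the tips on 7 of 10 chromosomes (log2 ratio -0.021, SE 0.028, p = 0.459). It was highest at the start of chromosome 9, 4.14, and lowest at the end of chromosome 4 and the start of chromosome 2, both 3.27.

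The median background was 3.35 ± 3.33 in the tips and 2.30 ± 0.0390 in the next 9 Mb (log2 ratio 0.24, SE 0.25, exact sign-flip p = 0.537), higher in the tips on 5 of 10 chromosomes. Chromosome 2, with 12.8 against 2.36, decided that mean: without it the log2 ratio was -0.0030. The median pileup was 14.4 ± 9.01 and 11.2 ± 0.425 fragments (log2 ratio 0.22, SE 0.17, exact sign-flip p = 0.109), and here too chromosome 2 stood apart, with 40 against 12. Without chromosome 2 the log2 ratio of pileup was 0.049.

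The median width was 226.2 ± 47.7 bp in the tips and 216.4 ± 7.31 bp inward (log2 ratio 0.041, SE 0.084, exact sign-flip p = 0.705). It was higher in the tips on 5 of 10 chromosomes, with ratios from 0.799 on chromosome 4 to 1.60 on chromosome 2, and the mean log2 ratio was -0.030 without chromosome 2. Peaks covered 1.05 ± 0.470% of the tips and 0.835 ± 0.177% of the next 9 Mb (log2 ratio 0.23, SE 0.21, exact sign-flip p = 0.322), or 3.58% at the start of chromosome 2 and 0.253% at the end of chromosome 3. Without chromosome 2 the log2 ratio of the covered share was 0.087.

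Peaks with a −log10 q of at least 5 made up 21.6 ± 14.0% and 15.8 ± 1.79% of all, a difference of 5.71 percentage points (SE 4.23, exact sign-flip p = 0.219). It was 55.4% on chromosome 2, and without that chromosome the difference was 2.14 points. Those with a fold of at least 5 made up 7.78 ± 4.18% and 8.25 ± 1.28% (difference -0.462 points, SE 1.41, exact sign-flip p = 0.73). In every one of the 9 measures the spread between chromosomes was larger in the tips than in the next 9 Mb, which rest on 9 times the length. The tests therefore leave differences of the size of their standard errors undetected, and a p above the threshold does not show that the regions are alike.

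**Figure D5:**
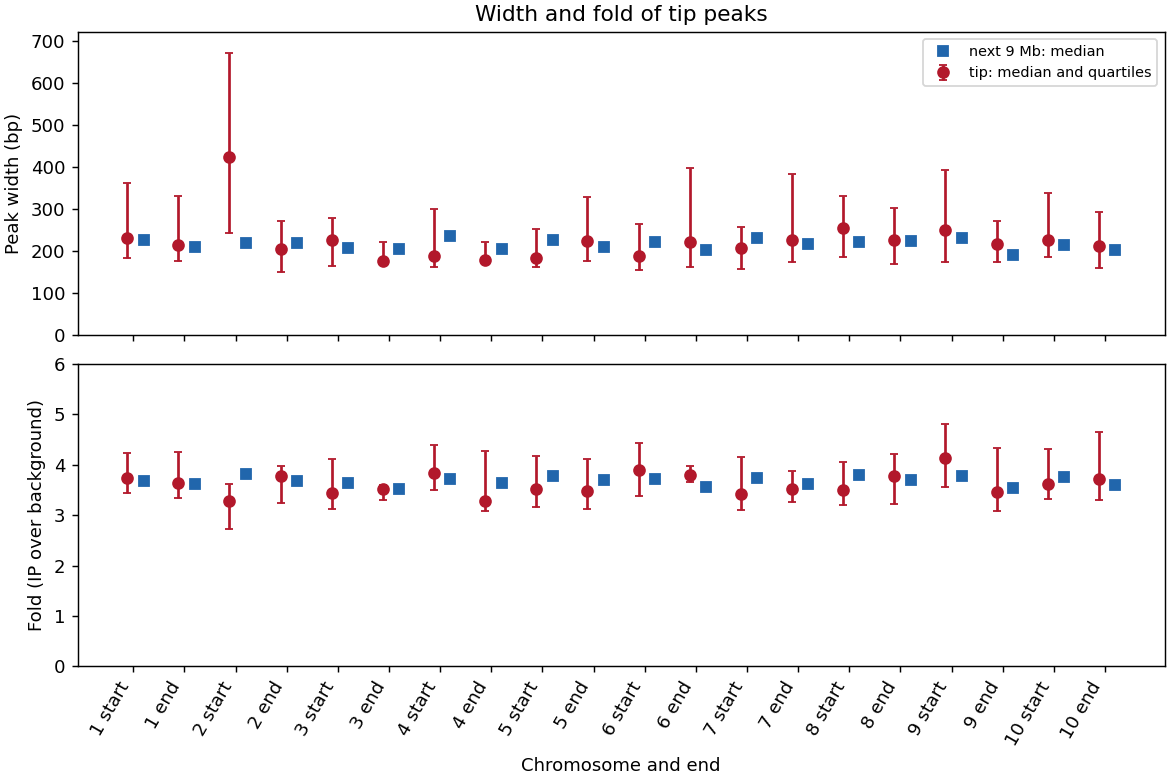
Median and quartiles of peak width in bp (top) and of fold (bottom) for the tip peaks of the 20 chromosome ends (circles and bars), with the median of the next 9 Mb of the same end (squares). The start of chromosome 2 has the widest peaks, with a median of 424 bp, and 1 of the 2 lowest median folds, 3.27.

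Fold and pileup showed no edge at the limit of 1 Mb among the peaks nearest to it. The last peaks inside the limit, chr8:996041-996288 and chr2:994095-994231, had folds of 3.33 and 3.16. The first peaks outside it, chr8:1003823-1003999 and chr8:1004258-1004452, had folds of 3.03 and 3.04. Pileups were 8 to 10 fragments for all 4. All 4 lay at the starts of chromosomes 8 and 2, so the limits of other tips are not described.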

How the data were processed

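Input (2 samples) and Myc immunoprecipitate (2 samples) from protoplasts with transient SbGhd7 were sequenced, and the authors deposited 1 narrowPeak list of 10 columns without a header. Per the submitters' processing notes, BWA 0.7.17.2 and MACS2 2.2.7.1 were used. How replicates were treated, the settings and the build are not given in the sources used. Peak names all carry 1 alignment name with a mark for duplicates, so it cannot be told whether 1 library or several stand behind the list. In the deposited list, column 5 is a score, column 7 a fold ratio, column 8 the −log10 of the p-value, column 9 the −log10 of the q-value, and column 10 the offset of the summit in bp. Per the labels' protocols, cells were fixed in 1% formaldehyde for 8 minutes, and libraries from 50 to 100 pg of DNA were amplified over 18 cycles and selected at 200 to 500 bp.

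In MACS2 the fold is known to be a ratio of pileup to background, each raised by 1, and the p-value a Poisson tail. For 40087 of 40087 peaks, 1 whole-number pileup matched both within a relative tolerance of 2e-05, and the step was tested on simulated data. Coordinates are printed 1-based, so each printed start is 1 higher than in the list. Distances run from the summit to the first base or to the end of the last peak, a lower bound of the chromosome length. The inner region runs from 1 to 10 Mb. Tips and inner regions were compared by an exact two-sided sign-flip test over 10 chromosomes, both ends pooled, with Benjamini-Hochberg adjustment over 9 measures. Chromosomes of 1 list are not biological replicates, so these p-values measure the spread between chromosomes only. Peaks named in the text were drawn from the outermost peak of each tip, the 10 with the largest fold, the 10 with the largest −log10 q, those with a background of 50 or more and the 5 widest. Not every one of these is named. The clusters, the blocks of chromosome 2, with their limit of 110 kb, the neighbours of the chromosome 6 pair, the background limit of 10 and, on account of it, 1 further peak each at the ends of chromosomes 6 and 9 were chosen after their values were seen. The 2 peaks nearest to the limit of 1 Mb on each side were taken by their distance from it. The tip peaks, measures and lists were chosen with earlier results of these data known. Gene features, promoters, flowering genes and sequences had been planned and were not run, since the build is not named and no genome was used. Computation used scipy 1.17.1, pandas 2.3.3, numpy 2.4.6, matplotlib 3.10.9 and Python 3.11.15.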

Additional observations from a re-analysis of the deposited data

How the results depend on the processing

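No paired analysis was possible because values per sample are not part of the 1 deposited list, so that leaving out a sample was not possible either. No comparison of tips with the inner region passed the threshold after adjustment, in the analysis as reported or under any of 13 alternatives or with a chromosome left out. Before adjustment, the exact sign-flip p fell under 0.05 for density (log2 ratio 0.42, p = 0.0293) and covered share (0.52, p = 0.041) against 1 to 5 Mb, and against 1 to 2 Mb (0.57, p = 0.0312 and 0.72, p = 0.0293). The exact p also did so without chromosome 7 for pileup (0.26, p = 0.0312) and spacing (-0.64, p = 0.0156). Values below are log2 ratios of tip to inner region, or percentage points for shares of peaks. With tips of 2 Mb the sign turned for density (-0.085), width (-0.0023), covered share (-0.072) and spacing (0.26). With 1 peak per 10 kb cluster it turned for fold (0.0068), pileup (-0.021), width (-0.029), spacing (0.060), the share with a fold of 5 or more (0.196) and the ratio of start to end tips (-0.019). With only backgrounds under 10 it turned for fold (2.57e-05), background (-0.014), width (-0.023) and the share with a fold of 5 or more (0.462). Without the start side of chromosome 2 it turned for background (-0.0046), width (-0.037) and covered share (-0.024). The share with a fold of 5 or more was also reversed with tips of 0.5 Mb (0.0057) and against 1 to 2 Mb (0.283). The cause of these turns was not tested. With each chromosome left out in turn, values ran from 0.087 to 0.23 for density, -0.040 to -0.0051 for fold, -0.0030 to 0.28 for background, 0.049 to 0.26 for pileup, -0.030 to 0.081 for width, 0.087 to 0.30 for covered share, -0.64 to -0.26 for spacing, 2.14 to 7.37 for the share with a −log10 q from 5 up, -1.19 to -0.0069 for the share with a fold of 5 or more and 0.20 to 0.62 for the ratio of start to end tips. The number of tip peaks was 703 as reported, 155 with a −log10 q from 5 up, 370 with tips of 0.5 Mb, 1183 with tips of 2 Mb and 256 with 1 peak per cluster. The alternatives against 1 to 2 Mb, with backgrounds under 10, without the start side of chromosome 2, with start distances counted from the first peak and, for start against end tips, with a chromosome left out were chosen after seeing the data. The upper quartile of pileup was 14 fragments, which limits the precision of their folds.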
